A study of Homo sapiens with 16 samples.

Results

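The mRNA levels of 6 genes for inflammatory cytokines and chemokines, IL1A, IL1B, IL32, CXCL2, CXCL3 and CCL20, were followed in AsPC-1, a human cell line of pancreatic ductal adenocarcinoma. They are 6 of 5250 genes and were read by 8 of 9554 probe sets, every probe set annotated to 1 of these genes alone. The genes were chosen by their values in earlier comparisons of ICG-001 with DMSO on these same arrays, which had listed them among the inflammatory genes with the largest rises, so their drug values below are a description without a test. The knockdown comparison took no part in that choice and is tested. The siRNA arrays did count, though, in the variation by which probe sets entered the deposited table, which matters for IL32 below. In the drug experiment the cells stayed in RPMI medium with 10% serum and were given ICG-001 at 10 µM, a compound known for binding CBP, a coactivator, and hindering its use by β-catenin, or the same volume of DMSO. RNA was taken after 6 h or 24 h, and each of these 4 groups has 3 arrays. In a separate experiment the cells were transfected through Lipofectamine 2000 with 20 nM of siRNA against CTNNB1, the β-catenin gene, or with 20 nM of control siRNA, and RNA was taken at 48 h, with 2 arrays per group. Arrays of a group are called biological replicates without mention of separate cultures, so the p-values measure only the spread between these samples.

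Interleukin-1α and interleukin-1β, the products of IL1A and IL1B, bind the same receptor and switch on NF-kB and AP-1 in the receiving cell. CXCL2 and CXCL3 attract neutrophils through CXCR2, and CCL20 attracts CCR6-bearing dendritic cells, T cells and B cells. In pancreatic carcinoma such signals are made by tumour cells as well as by leukocytes and fibroblasts, and transcription of these genes is classically driven by NF-kB bound at κB sites.

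The promoters of the 3 chemokine genes and of IL32 are shown because each carries a match to the same short κB pattern close to the start of transcription. The lines hold the 250 bases before the RefSeq start on build GRCh38.p14, 5′ to 3′ on the strand of the gene, which is the minus strand for CXCL2 (chr4:74099196-74099445) and CXCL3 (chr4:74038690-74038939) and the plus strand for CCL20 (chr2:227813592-227813841) and IL32 (chr16:3065153-3065402). Capitals mark the letters GGG and TTTCC with any 2 bases between them, or the reverse complement of these 10 letters.
CXCL2: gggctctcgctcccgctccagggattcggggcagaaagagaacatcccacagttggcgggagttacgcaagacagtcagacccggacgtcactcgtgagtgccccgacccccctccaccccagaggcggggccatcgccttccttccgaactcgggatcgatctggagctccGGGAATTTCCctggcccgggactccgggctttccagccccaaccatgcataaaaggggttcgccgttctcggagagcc
CXCL3: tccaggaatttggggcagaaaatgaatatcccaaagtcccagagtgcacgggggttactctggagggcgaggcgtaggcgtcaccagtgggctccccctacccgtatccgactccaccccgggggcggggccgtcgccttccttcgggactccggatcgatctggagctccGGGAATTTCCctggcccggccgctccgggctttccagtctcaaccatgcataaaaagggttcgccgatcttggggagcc
CCL20: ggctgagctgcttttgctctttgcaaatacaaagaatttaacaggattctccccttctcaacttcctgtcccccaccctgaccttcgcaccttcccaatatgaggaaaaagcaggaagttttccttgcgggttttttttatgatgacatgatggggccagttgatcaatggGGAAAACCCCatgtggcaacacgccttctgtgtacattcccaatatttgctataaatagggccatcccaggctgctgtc
IL32: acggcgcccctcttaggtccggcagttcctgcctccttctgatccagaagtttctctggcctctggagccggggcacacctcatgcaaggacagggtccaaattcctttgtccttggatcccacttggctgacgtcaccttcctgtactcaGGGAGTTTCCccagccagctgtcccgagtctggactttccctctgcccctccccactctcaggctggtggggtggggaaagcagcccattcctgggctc
The annotation holds 2 starts for IL32, and the window of the other (chr16:3065534-3065783) has no match to these letters. The match lay 78 to 69 bases before the start of CXCL2, 79 to 70 bases before that of CXCL3, 79 to 70 bases before that of CCL20, where it runs on the opposite strand, and 99 to 90 bases before that of IL32. Searched on both strands, these letters occurred in 608 of 35116 promoter windows (1.73%), each holding the 250 bases before a start. The letters were chosen after the sequences had been seen. CXCL2 and CXCL3, neighbouring paralogs on chromosome 4, had 195 identical letters in 266 aligned columns of their windows (73.3%), and the longest run they shared, 37 bases, contains the match. No window of IL1A or IL1B held a match to either κB pattern. An AP-1 sequence, TGACTCA, lay 12 to 6 bases before the upstream start of IL1A. The window of the other IL1A start overlaps this one and held the same TGACTCA, 105 to 99 bases before that start. It also held TGAGTCA, 55 to 49 bases before that start. The pattern TGANTCA occurred in 6.57% of all windows. The letters CTTTGAT, the core of a TCF/LEF site through which β-catenin is recruited, were in no window of the 6 genes and in 2.26% of all windows. The composite ATF4 and C/EBP pattern TGATGNAA was likewise in no window of these genes, and in 3.14% of all windows. A cyclic AMP response sequence, TGACGTCA, lay 121 to 114 bases before the IL32 start shown above, and occurred in 1.65% of all windows. A match is a description of the sequence and not a bound site.

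The 16 arrays fell apart by experiment. Of 5250 genes, 9 exceeded an intensity of 200 on every drug array and stayed under 20 on every siRNA array, and 1 did the reverse. Array means of all probe sets were 163.7 to 178.9 with ICG-001, 131.7 to 136.8 with DMSO and 105.5 to 109.6 on siRNA arrays. Of 18 carcinoma markers 6 were measured, and their summed intensity was 8639 to 8950.2 with ICG-001 and 5549 to 5735 with DMSO at 6 h, 9675 to 10008 with ICG-001 and 3912 to 4478 with DMSO at 24 h, and 1508 to 1533 with CTNNB1 siRNA and 1649 to 1749.7 with control siRNA. S100P, a calcium-binding protein, carried most of the difference with the drug, averaging 4633 with ICG-001 and 1507 with DMSO at 6 h, and 6763 with ICG-001 and 722 with DMSO at 24 h. The sum of the other 5 markers was 4098 to 4168 with ICG-001 and 4093 to 4195 with DMSO at 6 h, and lower with ICG-001 at 24 h, 3021 to 3147 against 3185 to 3725 with DMSO. On siRNA arrays each of these 5 lay below every drug array, whereas S100P averaged 904 with CTNNB1 siRNA and 1218 with control siRNA and overlapped with the drug arrays. Levels are therefore compared within an experiment only. Of 18 leukocyte markers 5 were measured, with sums of 126 to 139 with ICG-001 and 111 to 126 with DMSO at 6 h, 154 to 158 with ICG-001 and 119.8 to 133 with DMSO at 24 h, and 31.6 to 41.9 with CTNNB1 siRNA and 25.2 to 32.1 with control siRNA. PTPRC, the pan-leukocyte marker, stayed at group means between 4.80 and 24.5, and the largest contributor on drug arrays was HLA-DRA. The part of array brightness and of these markers in the cytokine values was not tested. The log2 differences of the 6 genes with ICG-001 in the deposited scaling were 0.17 to 2.00 at 6 h and 0.59 to 2.56 at 24 h, against 0.08 to 2.01 and 0.51 to 2.54 after quantile normalization. No probe set for CTNNB1 alone was among those analysed, so the knockdown was not checked on its target. These are whole-culture RNA values, in which a change in the number of expressing cells and a change in RNA per cell cannot be told apart.

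**Figure D1:**
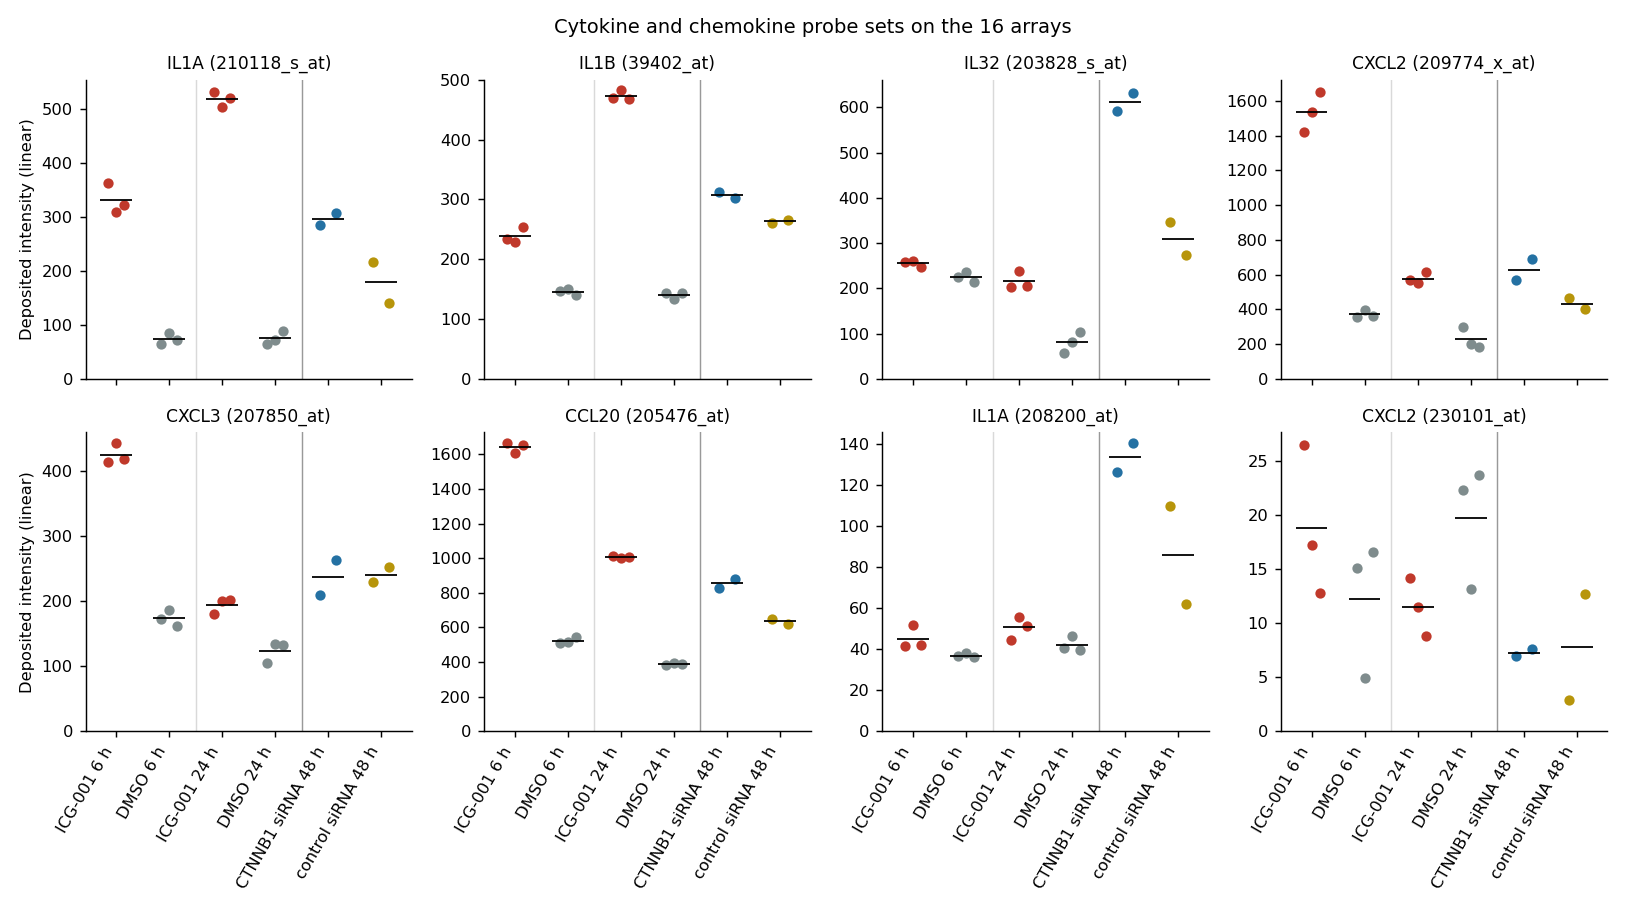
Deposited intensity (linear scale, vertical axis) of the 8 probe sets on the 16 arrays by group (horizontal axis), with a point per array and a bar at the group mean. The ICG-001 arrays lie above the DMSO arrays of the same time for every gene in its brighter probe set, whereas the dimmer CXCL2 probe set overlaps in all comparisons.

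IL1A, which encodes interleukin-1α, a cytokine that acts as an alarm signal when released from epithelial cells, had the largest difference with ICG-001 of the 6 genes at both times in its brighter probe set after quantile normalization. At 6 h CXCL2 was larger in the deposited scaling, at 2.00 against 1.95 for IL1A. The brighter IL1A probe set (210118_s_at) read 363, 308 and 321 with ICG-001 at 6 h, against 64.4, 84.7 and 72.2 with DMSO. The ICG-001 arrays at 24 h read 530.3, 503 and 520.1, against 63.9, 72.3 and 89.0 with DMSO. The groups were far from overlapping, and the ratio of their mean intensities was 4.49 at 6 h and 6.90 at 24 h. After log2 transformation of the intensity plus 16 and quantile normalization, the log2 difference was 2.01 ± 0.12 at 6 h and 2.54 ± 0.12 at 24 h (± SE, n = 3 against 3). The other IL1A probe set (208200_at) was dimmer and moved far less. It read 41.8, 51.8 and 42.2 with ICG-001 and 36.7, 38.1 and 36.1 with DMSO at 6 h, without overlap. At 24 h it read 44.8, 55.8 and 51.6 with ICG-001 and 40.8, 46.4 and 39.5 with DMSO, with overlap. Its log2 differences were 0.16 ± 0.14 and 0.06 ± 0.14, so the IL1A result with ICG-001 rests on the brighter probe set, and averaging the pair lowered it to 1.09 at 6 h, below CCL20 and CXCL3, and to 1.30 at 24 h, below IL1B.

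With CTNNB1 siRNA the brighter IL1A probe set read 284 and 306, against 217 and 141 with control siRNA. The pairs did not overlap, but the control arrays lay far apart. The log2 difference was 0.57 ± 0.15 (limma, adjusted p = 0.0182, n = 2 against 2), and 6.88% of all genes had a larger one. This call was lost in 3 of the 4 fits with an array left out. The difference was 0.36 (adjusted p = 0.214) when control siRNA replicate 2 was left out, 0.61 (adjusted p = 0.0508) when CTNNB1 siRNA replicate 1 was, and 0.53 (adjusted p = 0.0933) when CTNNB1 siRNA replicate 2 was. The dimmer probe set read 127 and 141 with CTNNB1 siRNA, against 110.2 and 62.0 with control siRNA. Here it moved by about as much as the brighter one, 0.44 ± 0.17 on the log2 scale, and did not pass when every probe set was tested (adjusted p = 0.122).

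IL1B, which encodes interleukin-1β, secreted after cleavage by caspase-1, was read by 1 probe set. With ICG-001 at 6 h it stood at 235, 229 and 255, against 147, 150.1 and 139.8 with DMSO. By 24 h it stood at 469.6, 483 and 468 with ICG-001, against 144, 134 and 144 with DMSO. Replicates were close together and the groups did not overlap at either time. The ratio of means was 1.64 at 6 h and 3.37 at 24 h, and the log2 differences were 0.63 ± 0.08 and 1.56 ± 0.08. After knockdown IL1B read 312 and 303 with CTNNB1 siRNA, against 261 and 265 with control siRNA. These arrays did not overlap either, yet the log2 difference of 0.14 ± 0.10 did not pass (adjusted p = 0.432), nor did it in any of the 15 alternatives run, with adjusted p between 0.182 and 0.715.

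IL32 encodes interleukin-32, a cytokine without a mouse counterpart that induces other inflammatory cytokines, and it was set apart by its course in the vehicle. With ICG-001 at 6 h it read 259, 261 and 247, against 225, 236 and 214 with DMSO. At 24 h it read 203, 239 and 206 with ICG-001, against 57.0, 82.0 and 104 with DMSO. At 6 h the deposited intensities lay just apart, with a log2 difference of 0.08 ± 0.13 after normalization, on which scale the arrays overlapped. At 24 h the groups were well separated, with a ratio of means of 2.66 and a log2 difference of 1.24 ± 0.13. The DMSO arrays were lower at 24 h than at 6 h (ratio of means 0.360, log2 difference -1.50), and the ICG-001 arrays less so (0.845, log2 difference -0.35), so the 24 h difference goes with a low level in DMSO.

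IL32 had the largest knockdown difference of the 6 genes. It read 592 and 632 with CTNNB1 siRNA, against 346 and 274 with control siRNA. Both CTNNB1 siRNA arrays lay well above both controls, a ratio of means of 1.97. IL32 rose by 0.85 ± 0.16 on the log2 scale (adjusted p = 0.00134), and 2.17% of all genes had a larger difference. Every probe set of the deposited table had a coefficient of variation of at least 0.4 over the 16 arrays. IL32 reaches that only with its CTNNB1 siRNA arrays counted, so this test draws on values that admitted the gene. In the 15 alternatives the difference stayed between 0.75 and 0.96 and the adjusted p between 0.000108 and 0.0214.

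CXCL2, a neutrophil-attracting chemokine, was highest with ICG-001 at 6 h. Its brighter probe set (209774_x_at) read 1421, 1534 and 1647 with ICG-001 at 6 h, against 356, 398 and 361 with DMSO. The 24 h arrays read 569, 550.2 and 612 with ICG-001, against 297, 203 and 182 with DMSO. The groups did not overlap at either time, and even the ICG-001 arrays at 24 h lay above the DMSO arrays at 6 h. The ratio of means was 4.13 at 6 h and 2.54 at 24 h, with log2 differences of 1.73 ± 0.13 (2.00 in the deposited scaling) and 1.17 ± 0.13 (1.31). The suffix of this probe set marks probes that also match other transcripts, and the share of signal from paralogs such as CXCL3 is uncertain. The other CXCL2 probe set (230101_at) was dim, at 4.94 to 26.5 on drug arrays and 2.94 to 12.7 on siRNA arrays, and overlapped in all comparisons. Averaging the pair gave 1.01 at 6 h and 0.38 at 24 h. After knockdown the brighter probe set read 568 and 688 with CTNNB1 siRNA, against 463 and 402 with control siRNA. The pairs did not overlap, and the log2 difference of 0.48 ± 0.16 missed the threshold (adjusted p = 0.063). It passed in the deposited scaling (0.52, adjusted p = 0.0351), with arrays centred on their medians (0.52, adjusted p = 0.0419), with 64 in place of 16 added (0.45, adjusted p = 0.0482) and on the siRNA arrays alone (adjusted p = 0.0319). Over all 15 alternatives the adjusted p ran from 0.0319 to 0.381.

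CXCL3, the neighbouring paralog of CXCL2 and likewise a CXCR2 ligand, had the same order of groups on drug arrays with smaller differences. It read 413, 443 and 419 with ICG-001 at 6 h, against 173, 186 and 162 with DMSO. Readings at 24 h were 179.9, 201 and 202 with ICG-001, against 105, 135 and 132 with DMSO. The groups of the same time did not overlap, although the ICG-001 arrays at 24 h had come down into the range of DMSO at 6 h and just above it. The ratio of means was 2.45 at 6 h and 1.57 at 24 h, with log2 differences of 1.18 ± 0.10 and 0.51 ± 0.10. CXCL3 was the only 1 of the 6 genes whose siRNA arrays overlapped, at 209 and 264 with CTNNB1 siRNA, against 229 and 252 with control siRNA. Its log2 difference was -0.05 ± 0.12 (adjusted p = 0.881), and the sign turned without control siRNA replicate 2 (0.03) or without CTNNB1 siRNA replicate 1 (0.10).

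CCL20, the ligand of CCR6, had the smallest standard errors of the 6 genes. It read 1664, 1606 and 1655 with ICG-001 at 6 h, against 513, 513 and 545 with DMSO. Its values at 24 h were 1013, 1003 and 1004 with ICG-001, against 381, 396 and 391 with DMSO. No ICG-001 array at either time came near a DMSO array of either time. The ratio of means was 3.13 at 6 h and 2.58 at 24 h, with log2 differences of 1.31 ± 0.06 (1.62 in the deposited scaling) and 1.05 ± 0.06 (1.33). After knockdown CCL20 read 830.4 and 881 with CTNNB1 siRNA, against 650.5 and 620.5 with control siRNA. The pairs were clearly apart, a ratio of means of 1.35. CCL20 rose by 0.40 ± 0.07 on the log2 scale (adjusted p = 0.000724), and 13% of all genes had a larger difference. It passed in all 15 alternatives, with differences between 0.36 and 0.44 and adjusted p between 0.000198 and 0.0215.

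**Figure D2:**
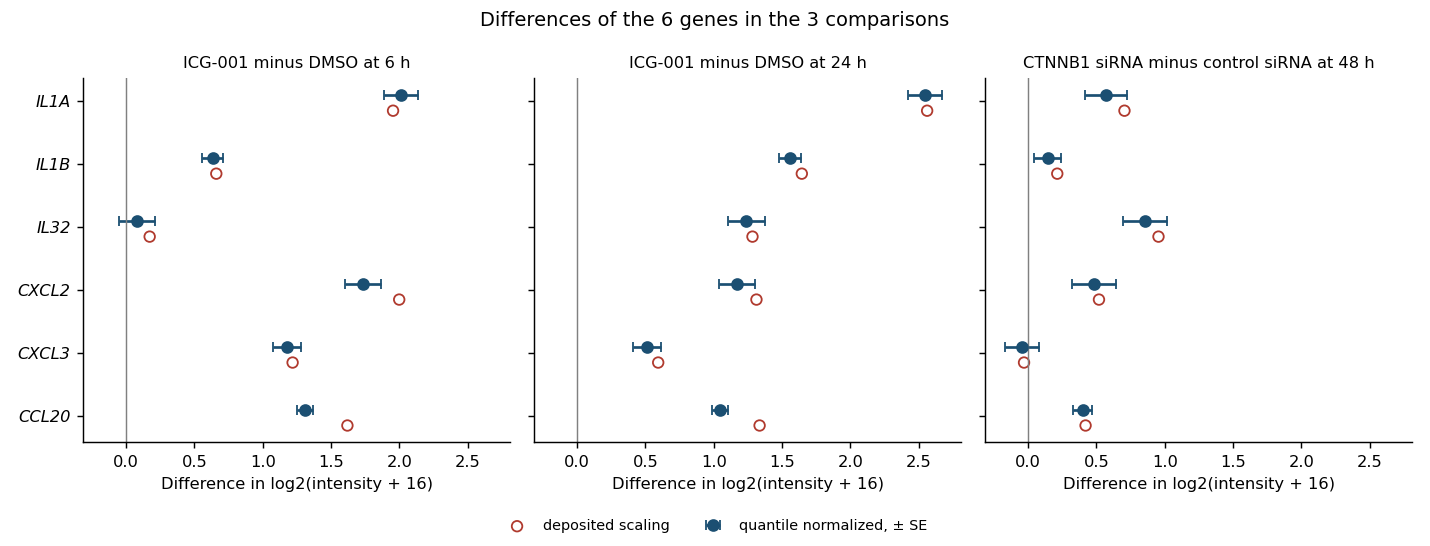
Difference in log2(intensity + 16) (horizontal axis) of the 6 genes (rows) in the 3 comparisons (panels), with filled points and bars for the quantile normalized value ± SE and open points for the deposited scaling. In the knockdown panel IL32, IL1A, CXCL2 and CCL20 lie to the right of 0 at 0.40 to 0.85, and CXCL3 lies at -0.05.

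Counted together by their brighter probe sets, all 6 genes were higher without overlap of the deposited intensities at 6 h and at 24 h of ICG-001. Of all 5250 genes, 15% were so at 6 h and 21% at 24 h. Nothing is read from this, since these contrasts chose the genes. The median log2 difference of the 6 was 1.24 at 6 h and 1.20 at 24 h, beside -0.02 over all genes at either time. In the knockdown comparison 5 of the 6 genes were higher without overlap, as were 23.8% of all genes. By the test, IL1A, IL32 and CCL20 rose and 0 fell, while 6.19% of all genes rose and 5.83% fell. The IL32 rise carries the limit of selection by variation given above. The median log2 difference of the 6 was 0.44, beside 0.01 over all genes.

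**Figure D3:**
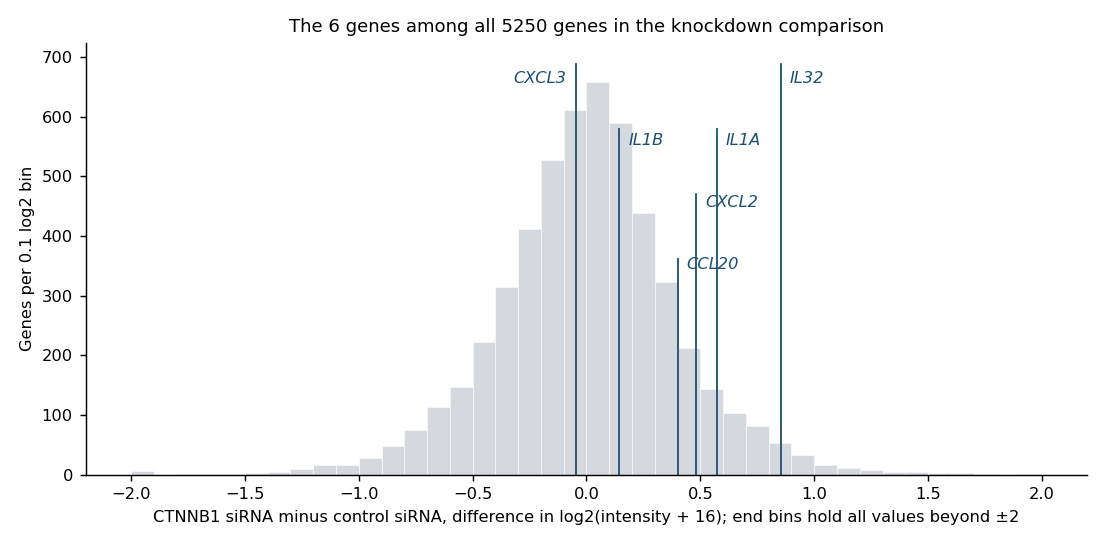
Number of genes (vertical axis) by their difference in log2(intensity + 16) between CTNNB1 siRNA and control siRNA (horizontal axis), for all 5250 genes in grey and with lines for the 6 cytokine and chemokine genes, whose heights only keep the names apart. IL32 lies furthest right at 0.85, and IL1B and CXCL3 lie within the bulk of genes.

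The time course of IL1A and IL1B differed from that of the 3 chemokine genes and IL32, again as a description. With DMSO, IL32, CXCL2, CXCL3 and CCL20 were lower at 24 h than at 6 h without overlap (10.2% of all genes were), with log2 differences of -1.50, -0.82, -0.54 and -0.45. IL1A, in its brighter probe set, and IL1B overlapped between the times in DMSO, at -0.03 and -0.08. The dimmer IL1A probe set went otherwise, being higher at 24 h than at 6 h of DMSO without overlap (means 42.2 and 37.0) and overlapping between the times of ICG-001 (means 50.7 and 45.3). The dimmer CXCL2 probe set overlapped between the times in both, with log2 differences of 0.32 in DMSO and -0.38 with ICG-001. With ICG-001, IL1A and IL1B were higher at 24 h without overlap (19.1% of all genes were), by 0.50 and 0.85. The 3 chemokine genes and IL32 were lower at 24 h with ICG-001, without overlap (13.2% of all genes were). Their log2 differences were -1.39 for CXCL2, -1.20 for CXCL3, -0.71 for CCL20 and -0.35 for IL32. The ICG-001 difference was thus larger at 24 h than at 6 h for IL1A (by 0.53), IL1B (by 0.93) and IL32 (by 1.16), and smaller for CXCL2 (-0.56), CXCL3 (-0.67) and CCL20 (-0.26). The drug and DMSO arrays are shared by these comparisons and by those that chose the genes.

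**Figure D4:**
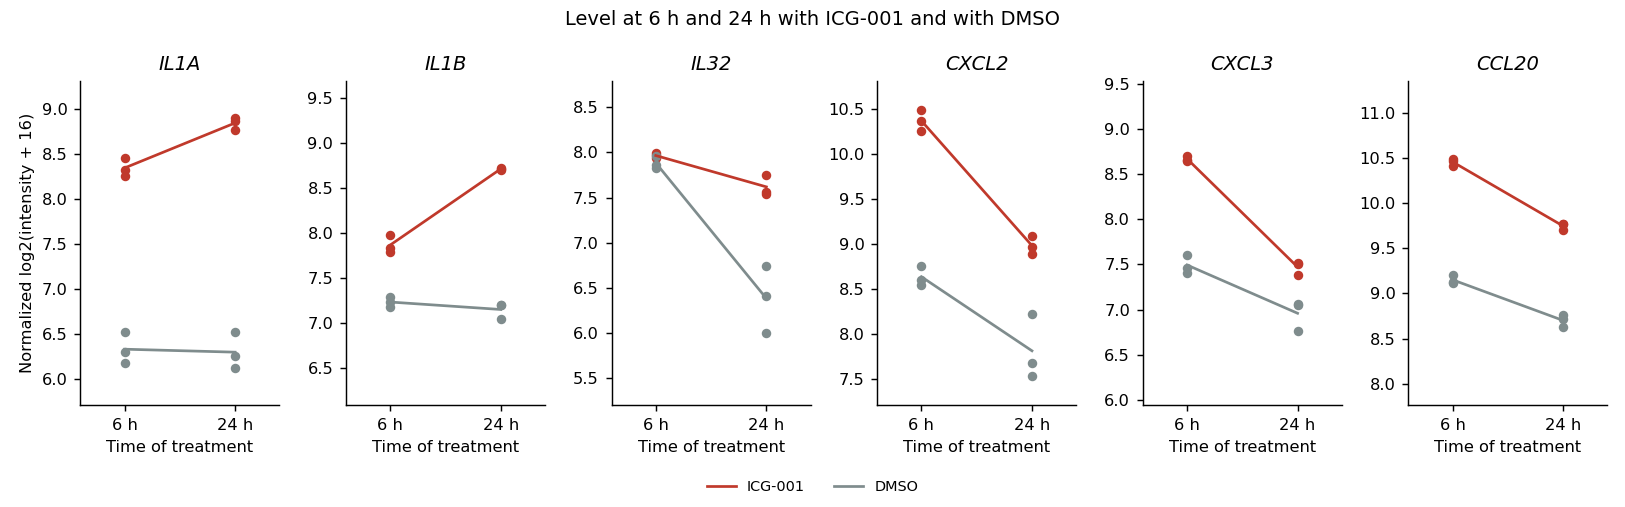
Normalized log2(intensity + 16) (vertical axis) at 6 h and 24 h (horizontal axis), with a point per array and lines through the means of ICG-001 and DMSO. Each panel spans the same number of log2 units, so slopes can be compared. IL1A (brighter probe set) and IL1B go up with ICG-001 and stay level with DMSO, while the 3 chemokine genes go down in both and IL32 goes down mostly in DMSO.

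Likeness between genes was measured as the root-mean-square difference of the 6 group means on the log2 scale, each gene centred within the drug groups and within the siRNA groups. Among the 6 genes the chemokines lay closest, CXCL3 and CCL20 at 0.24, CXCL2 and CCL20 at 0.25 and CXCL2 and CXCL3 at 0.31. IL1A and IL1B lay 0.51 apart, and IL1A and IL32 lay 0.83 apart. PPP1R15A, a stress-induced phosphatase subunit that reverses eIF2α phosphorylation, was the nearest of all genes to each of the 3 chemokine genes, at 0.22 for CXCL2, 0.13 for CXCL3 and 0.12 for CCL20. ATF3, a stress-induced transcription factor, was the third nearest to CCL20, at 0.13, after PLCXD1. BCAN and SMOX followed PPP1R15A for CXCL3. Nearest to IL1A were KDM7A (0.24), LAT2 (0.25) and CYP1A1 (0.26). IL1B had the closest match of all, SUN3 at 0.05, then SLC16A14 and GCKR. IL32 was nearest to CCDC9B (0.24), PAQR5 (0.25) and SEMA7A (0.26). These are distances over 6 group means, and the groups share arrays and scaling.

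Other genes of the same pathways, from 11 lists that leave out the 6 genes, were tested in the same model, with 65 of 246 listed genes measured. Of these, 9 rose and 2 fell with ICG-001 at 6 h (16.9%, beside 13.8% of all genes, 5.56% rising and 8.23% falling). At 24 h 9 rose and 4 fell (20%, beside 20.5% of all genes, 9.22% rising and 11.3% falling). With CTNNB1 siRNA 6 rose and 2 fell (12.3%, beside 12% of all genes). After quantile normalization the share past the test was thus near that of all genes in these 3 comparisons. The drug counts moved with the scaling. At 6 h 11 rose and 0 fell both in the deposited scaling and with arrays centred on their medians (16.9%, beside 12.4% and 11.3% of all genes). At 24 h 17 rose and 2 fell in the deposited scaling (29.2%, beside 21.4% of all genes), and 14 rose and 5 fell with centred arrays (29.2%, beside 20.9%). Between 24 h and 6 h of DMSO 1 rose and 2 fell (4.62%, beside 8.63% of all genes, 4.69% rising and 3.94% falling). Between 24 h and 6 h of ICG-001 3 rose and 13 fell (24.6%, beside 17.4% of all genes, 8.5% rising and 8.88% falling), and 5 of the 7 AP-1 and C/EBP genes were among those that fell. In the deposited scaling 6 rose and 8 fell there (21.5%, beside 19.3% of all genes), with 4 of the 7 AP-1 and C/EBP genes among the falls. The median log2 difference of the 65 genes was 0.03 at 6 h, 0.03 at 24 h and -0.02 after knockdown.

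After quantile normalization, most of the rises with ICG-001 among these lists lay in the transcription factors of the AP-1 and C/EBP families. Whether these factors act on the 6 cytokine and chemokine genes was not tested. Of 7 measured genes, 6 rose and 0 fell at 6 h and likewise at 24 h, with list medians of 0.85 and 0.70. Of all genes 5.56% rose at 6 h and 9.22% at 24 h. FOSB did not pass, at 0.001 ± 0.49 and 0.09 ± 0.49. The lists were drawn up with earlier results of these data known, so the count is a description. JDP2, an AP-1 repressor, read 2232 ± 21.3 with ICG-001 and 440.2 ± 36.1 with DMSO at 6 h (mean ± SD, n = 3), and rose by 1.97 ± 0.09 (adjusted p = 1.3e-11). At 24 h it rose by 1.63 ± 0.09. DDIT3, which encodes the stress factor CHOP, rose by 1.46 ± 0.06 at 6 h and 0.83 ± 0.06 at 24 h. ATF3 rose by 1.33 ± 0.10 at 6 h and 0.89 ± 0.10 at 24 h, and FOSL2, a FOS family member, by 0.85 ± 0.06 and 0.70 ± 0.06. These calls held in all 17 alternatives. After knockdown 3 of the 7 rose, beside 6.19% of all genes. JDP2 rose by 0.49 ± 0.12, MAFF by 0.32 ± 0.08 and FOSL2 by 0.28 ± 0.08. Each of these 3 calls ended in at least 2 of 15 alternatives.

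Of 3 other IL-1 family ligands measured, 0 passed at 6 h in limma (1 at an unadjusted p under 0.05) and 1 rose at 24 h, with list medians of 0.13 and 0.57. IL37, an IL-1 family member that dampens inflammation, was the gene that rose at 24 h, to 178.3 ± 9.95 with ICG-001, against 69.6 ± 5.87 with DMSO (log2 difference 1.13 ± 0.16, adjusted p = 1.13e-05). Among 5 other CXC chemokines measured, CXCL8, the main neutrophil attractant of human epithelium and a CXCR2 ligand like CXCL2 and CXCL3, rose at 6 h by 0.29 ± 0.09 (adjusted p = 0.0264), or 0.52 by the deposited scaling. The CXCL8 call ended in 5 of 17 alternatives, and its log2 difference was 0.04 at 24 h (adjusted p = 0.854). Of 6 other CC, CX3C and XC chemokine genes, limma called 0 with ICG-001 at either time, and at an unadjusted p under 0.05 the counts were 0 at 6 h and 1 at 24 h. The 5 receptor and adaptor genes of the IL-1 family and the 6 genes for IL-1 processing and the inflammasome, caspase-1 among them, gave 0 calls in limma in the 3 comparisons. Some processing genes were dim, with group means of 4.88 to 12.4 for CASP1, 7.06 to 13.3 for CARD16 and 1.78 to 16.9 for CASP5. The lack of a call therefore says little about them. At an unadjusted p under 0.05 the receptor and adaptor genes counted 2 at 24 h and 0 in the other comparisons, and the processing genes counted 1 at 24 h, 1 after knockdown and 0 at 6 h. At 24 h 1 receptor or adaptor gene passed in the deposited scaling, and with centred arrays 1 gene of each of these 3 lists did.

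Within the NF-kB pathway, NFKB2, the precursor of the p52 subunit, rose at 6 h by 0.62 ± 0.14 (adjusted p = 0.0031), with 0.38 at 24 h (adjusted p = 0.0616). TNIP2, an inhibitor of the pathway, fell by 0.39 at 6 h and fell by 0.53 at 24 h, but stood at 0.10 and 0.01 in the deposited scaling. RELA, the p65 subunit, fell by 0.16 at 24 h after quantile normalization and stood at 0.42 in the deposited scaling (adjusted p = 7.91e-06). Of 8 measured NF-kB target genes other than cytokines, TNFAIP8 rose at 24 h by 0.49 ± 0.16 (adjusted p = 0.0367, a call that ended in 5 of 17 alternatives). CD44, a hyaluronan receptor, fell by 0.41 at 6 h, and its deposited values gave 0.10.

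Among the ligands' partners, CCR6, the receptor of CCL20, was the chemokine receptor gene that rose with CTNNB1 siRNA, at 24.0 ± 5.18, against 4.28 ± 2.75 with control siRNA (mean ± SD, n = 2). Its log2 difference was 1.42 ± 0.27 (adjusted p = 0.00125), at dim intensities where the number added before log2 sets the size (0.61 with 64 added and 2.81 with 1 added), and it did not pass on the siRNA arrays alone (adjusted p = 0.0756). CD44 rose by 0.62 ± 0.09 (adjusted p = 6.92e-05) and TNFAIP2 by 0.42 ± 0.11 (adjusted p = 0.0151, ended in 5 of 15 alternatives). CX3CL1, a membrane-bound chemokine, fell by 0.71 ± 0.17 (adjusted p = 0.00814), a call that also ended in 5 of 15 alternatives. It too was dim on siRNA arrays, with means of 8.145 with CTNNB1 siRNA and 17.38 with control siRNA. Its log2 difference ran from -1.27 to -0.30 over the alternatives, and was -0.47 in the deposited scaling (limma, adjusted p = 0.0911). TNFSF15, a TNF family cytokine, fell by 0.30 ± 0.06 with CTNNB1 siRNA (adjusted p = 0.00297, ended in 3 of 15 alternatives) and rose by 0.28 ± 0.05 with ICG-001 at 6 h (adjusted p = 0.000344), or 0.80 by the deposited scaling. Its log2 difference at 24 h was -0.07, and 0.52 in the deposited scaling. The remaining calls at 24 h of ICG-001 were falls of the receptor gene CCR9 (-0.60, adjusted p = 0.0177) and of TNFSF10, the death ligand TRAIL (-0.70, adjusted p = 0.0101), and a rise of HNRNPD, which binds AU-rich mRNA elements (0.38, adjusted p = 0.015). Of these, CCR9 and TNFSF10 ended in 2 and HNRNPD in 3 of 17 alternatives.

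**Figure D5:**
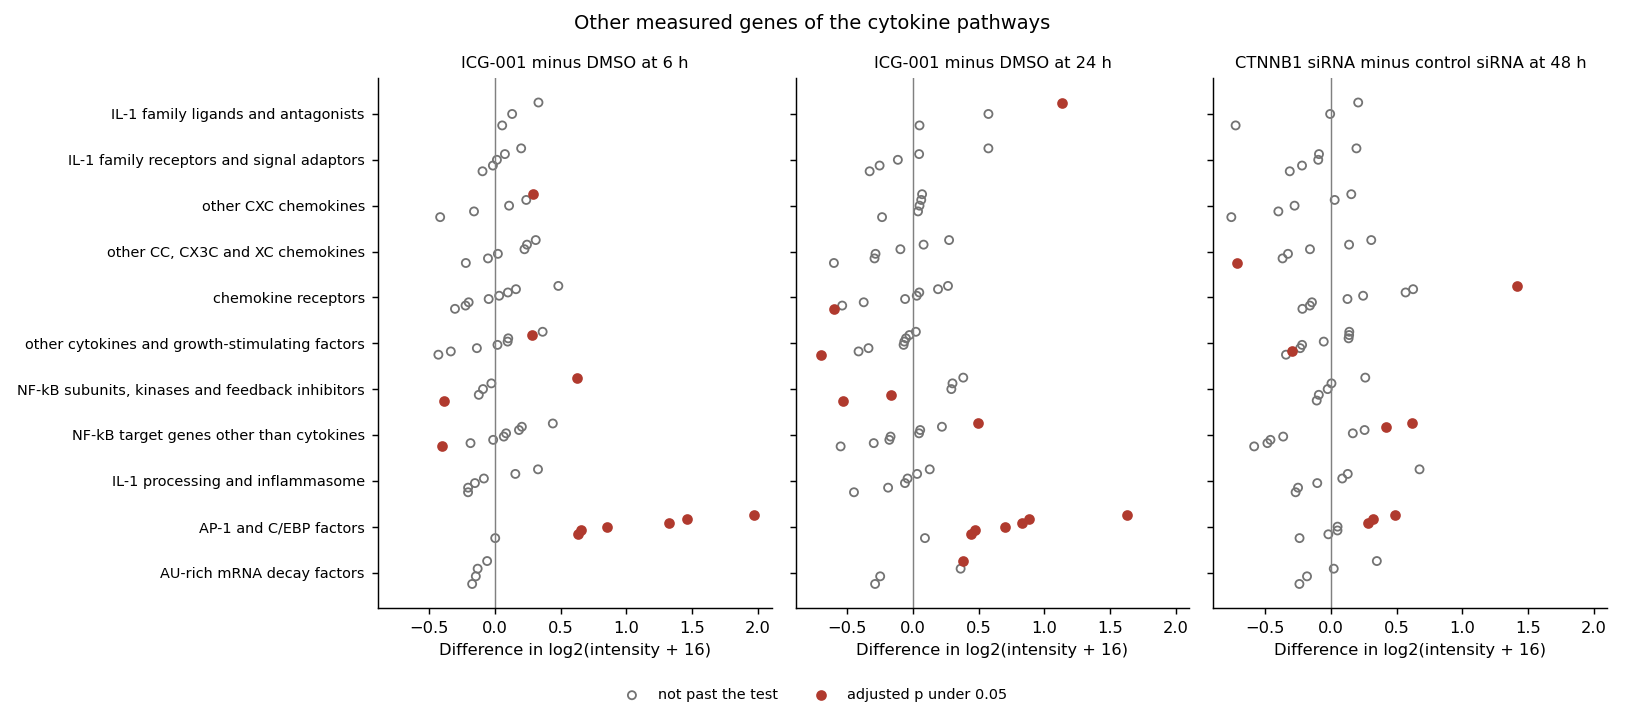
Difference in log2(intensity + 16) (horizontal axis) of the 65 measured genes of 11 pathway lists (rows) in the 3 comparisons (panels), filled where the adjusted p is under 0.05. The filled points at 6 h and 24 h gather in the AP-1 and C/EBP row, where 6 of 7 genes rose at each time, beside 5.56% and 9.22% of all genes. The lists were drawn up with earlier results of these data known.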

How the data were processed

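Total RNA was hybridised to 16 Affymetrix arrays, 3 per drug group and 2 per siRNA group. The deposited table holds linear intensity values of probe sets on each array, per the file headers. How the authors summarised probes and scaled arrays is not given in the sources used here. Every one of its 9554 probe sets had a coefficient of variation of at least 0.4 over the 16 arrays. The table is thus a selection by variation, in which the siRNA arrays counted, and all counts refer to it. Names came from the platform annotation (1 gene for 6442 probe sets, several for 252, none for 2860), updated through gene identifiers for 6432.

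The number 16 was added to each intensity, log2 was taken and the arrays were quantile normalized, since array medians spanned 0.636 on that scale. For each gene the probe set with the highest mean was kept. Using limma 3.58.1 under R 4.3.3, a model with 6 group means was fitted to the 16 arrays (10 residual and 7.84 prior degrees of freedom, intensity trend). Tests were two-sided with Benjamini-Hochberg adjustment over 5250 genes, called at an adjusted p under 0.05. The method was tested on simulated data, but no result of that test is given here and no statement rests on it. The number of arrays limits the precision. The 6 genes and all lists were chosen with earlier results of these data known. Named pathway genes were the called ones, at most 4 a list and comparison, by size of change, and in addition 3 nearest genes for each of the 6. Genes whose level never passed the 25th percentile of gene means (4.78) were left out of the nearest genes. Values of CXCL8 and NFKB2 in comparisons where they did not pass were added after they had been seen. Promoters came from RefSeq and were searched and aligned with Python 3.11.15 and Biopython 1.88. Alternatives covered scaling, the added number, dim genes, probe sets, the arrays fitted, the trend, the replicate block and leaving out each array, plus the interaction of ICG-001 and time for pathway genes and the carcinoma marker sum without S100P, both chosen after seeing the data.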

Additional observations from a re-analysis of the deposited data

Results flagged for a closer look

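For 5 genes of the pathway lists the ICG-001 difference itself differed between 24 h and 6 h, by a test of the interaction of ICG-001 and time that 410 of 5250 genes passed (7.81%). DDIT3 rose less at 24 h (0.83) than at 6 h (1.46), an interaction of -0.63 (adjusted p = 6.44e-05). IL37 stood at 1.13 at 24 h and at 0.33 at 6 h, an interaction of 0.80 (adjusted p = 0.0278). CCR9 stood at -0.60 at 24 h and at 0.48 at 6 h, an interaction of -1.08 (adjusted p = 0.00722). TNFSF15 stood at -0.07 at 24 h and at 0.28 at 6 h, an interaction of -0.35 (adjusted p = 0.00273). CD44 stood at 0.06 at 24 h and at -0.41 at 6 h, an interaction of 0.46 (adjusted p = 0.00523). All are log2 differences after quantile normalization. In the deposited scaling TNFSF15 stood at 0.52 at 24 h and 0.80 at 6 h, an interaction of -0.28 (adjusted p = 0.0226), and CD44 at 0.60 at 24 h and 0.10 at 6 h, an interaction of 0.51 (adjusted p = 0.00266). All 5 interactions passed in that scaling and with arrays centred on their medians, with adjusted p between 9.91e-05 and 0.0427, in settings chosen after seeing the data. The groups of 2 or 3 arrays are too small for a test of outlying arrays.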

How the results depend on the processing

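The direction of the drug differences of the 6 genes was the same in all 17 alternatives, and their knockdown calls changed as given for IL1A and CXCL2. No alternative took the dimmer CXCL2 probe set alone, which stood at -0.41 at 24 h of ICG-001. The knockdown count of 631 genes became 414 (232 higher, 182 lower) with arrays centred on their medians and 289 (145 higher, 144 lower) on the siRNA arrays alone. The 8 pathway genes called there became 5 with centred arrays, 3 on the siRNA arrays alone, 4 without the intensity trend and 5 to 10 with an array left out. The 3 pathway genes called between the times of DMSO became 5 with normalization within each experiment. In the deposited scaling and with centred arrays, the sign turned at 6 h for TNIP2 (0.098 and 0.086) and CD44 (0.095 and 0.084), and at 24 h for RELA (0.42 and 0.29). TNIP2 at 24 h turned in the deposited scaling (0.013), and CXCL3 after knockdown turned without control siRNA replicate 2 (0.03) or CTNNB1 siRNA replicate 1 (0.10), in a range of -0.19 to 0.10 with an array left out. The share of rises among calls moved with scaling, at 6 h to 62.5% in the deposited scaling and 62.5% with centred arrays, against 40.3%, at 24 h to 65.8% in the deposited scaling, against 45%, and between the times of ICG-001 to 61.8%, against 48.9%. The cause was not tested. With an array left out the counts were 623 to 662 at 6 h, 934 to 1024 at 24 h and 484 to 669 after knockdown. Between the times they were 371 to 413 with DMSO and 790 to 874 with ICG-001. Where 1 siRNA array is left out, the lone array is assumed to vary like the others. The replicate numbers did not pair the arrays (correlations of same-numbered arrays -0.04 to 0.09). With them as a block, 734 genes passed at 6 h, 1093 at 24 h and 656 after knockdown, and no call of the 6 genes changed. Signal near background limits the dim CXCL2 probe set, CCR6 and, on siRNA arrays, CX3CL1. It also limits many pathway genes without a call, CASP1 among them.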
